A study of Mus musculus with 12 samples.

Results

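The 10 genes described here belong to one signalling system: the ligands *Tgfb1*, *Tgfb2* and *Tgfb3*, the latent TGF-β binding proteins *Ltbp1*, *Ltbp2*, *Ltbp3* and *Ltbp4*, the type II receptor *Tgfbr2*, the inhibitory *Smad7* and the TGF-β-induced matrix gene *Tgfbi*. They were chosen by gene symbol, with earlier results of these data known, and are 10 of the 54532 genes in the table of counts. To ask how indole-3-propionic acid (IPA), a tryptophan metabolite made by gut bacteria, acts on the generation of immunosuppressive myeloid cells, bone marrow cells of wild-type (WT) C57BL/6 mice were cultured for 5 days with the cytokines GM-CSF and IL-6, which all 12 samples received. Cells were given vehicle (DMSO), 10 µM IPA or 50 µM IPA, with 4 RNA-seq libraries per group, and the labels give neither the age or sex of the mice nor whether the 4 libraries of a group came from separate animals or cultures. The p-values therefore measure only the spread between these libraries.

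TGF-β is secreted in a latent form. Each ligand stays wrapped in its own propeptide, and in the cell this small latent complex is joined to a latent TGF-β binding protein (LTBP), which carries it into the extracellular matrix until integrins, proteases or other activators free the ligand. The free ligand assembles a type II and a type I receptor, the receptors phosphorylate Smad2 and Smad3, and Smad7 acts as a feedback inhibitor of that step. In myeloid cells TGF-β is known as a signal that restrains inflammatory activation.

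At 50 µM IPA, *Ltbp3* rose 3.39-fold over vehicle (95% interval 2.85 to 4.04) and *Tgfb3* 2.19-fold (1.63 to 2.95), while *Tgfbi* fell to 0.594 of its vehicle level (0.53 to 0.665), with 4 libraries per group. At 10 µM IPA none of the 9 genes tested passed edgeR's test, while *Ltbp3* stood 1.48-fold above vehicle (1.23 to 1.76) with no overlap between the libraries and was called by DESeq2. The most abundant ligand transcript, *Tgfb1*, and the receptor transcript *Tgfbr2* stayed within 3% of vehicle at both doses in their means. *Ltbp1* and *Smad7* did not pass at either dose. The paper describes the higher dose as supraphysiological and reports that it slightly reduced the viability of the cultured cells. For that reason its authors focused on the lower dose. The part of reduced viability in the differences given here for 50 µM, those of other pathway genes and cell markers included, was not tested.

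Totals per library lay between 22417710 and 26442653 counts with vehicle, 20848854 and 28038612 at 10 µM and 20451312 and 26925143 at 50 µM. Values are counts per 1000000 (CPM) after TMM scaling over the 12 libraries, and a gene was tested if it had more than 0.5 CPM in at least 2 of them. *Ltbp4*, with 0 to 5 counts per library, was the member that did not pass. Markers of monocytes, macrophages and neutrophils were expressed in every library, while the summed level of the erythroid list was at most 1.34 CPM and that of the T and NK cell list at most 5.24 CPM. Since these are bulk samples, fewer cells of a type and less RNA per cell cannot be told apart.

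**Figure D1:**
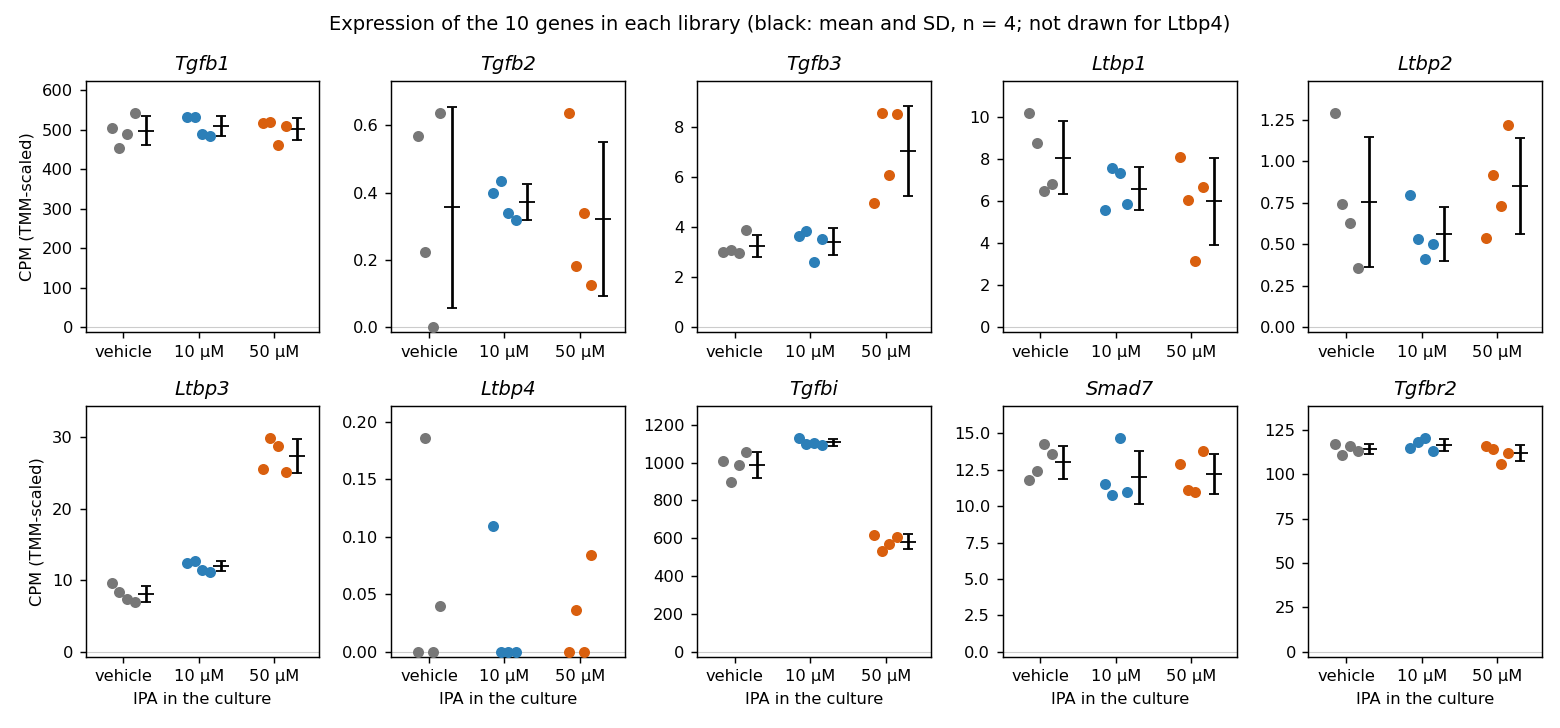
Expression of the 10 genes in each of the 12 libraries as TMM-scaled CPM on linear axes that start at 0 (points: libraries; black: mean and SD, n = 4 per group, not drawn for *Ltbp4*). *Ltbp3* and *Tgfb3* lie highest and *Tgfbi* lowest in the 4 libraries at 50 µM IPA, without overlap with the other groups.

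To compare genes with each other, CPM was divided by exon length. With vehicle, *Tgfbi* had the highest level at 262 CPM per kilobase, followed by *Tgfb1* at 98.6, *Tgfbr2* at 14.0 and *Smad7* at 2.88, and the libraries of these 4 genes did not overlap with those of the next gene in the order. *Tgfb3* (0.957 CPM per kilobase), *Ltbp3* (0.892) and *Ltbp1* (0.756) followed, and the ranges of neighbours overlapped. *Ltbp2* (0.092 CPM per kilobase) and *Tgfb2* (0.0615) were near the limit of detection, and their ranges overlapped too. The order changed in its middle part at 50 µM: *Ltbp3* reached 3.01 CPM per kilobase and overlapped with *Smad7* at 2.71, *Tgfb3* reached 2.08 and overlapped with *Smad7* as well, and *Ltbp1* lay below them at 0.561. *Tgfbi* remained the highest at 155 CPM per kilobase, with its lowest library at 142 against the highest *Tgfb1* library at 103.

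**Figure D2:**
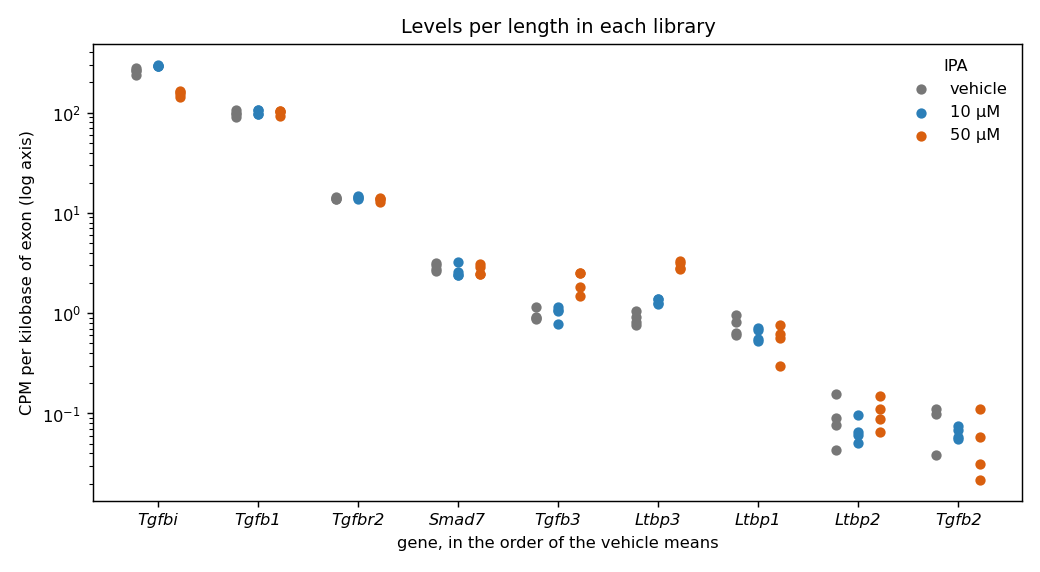
Levels per length, as CPM per kilobase of exon on a log axis, of 9 genes in each library, ordered by their vehicle means. *Ltbp3* moved from 0.892 with vehicle to 3.01 at 50 µM IPA, next to *Smad7*. The vehicle library with 0 counts of *Tgfb2* cannot be drawn on a log axis, and *Ltbp4* is left out.

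*Ltbp3*, *Tgfbi*, *Tgfb1* and *Ltbp1* are shown by the bases before their RefSeq start (GRCm38.p6), since the first 2 were called at 50 µM IPA, *Tgfb1* is the ligand with the highest level, and *Ltbp1* was not called. Entries of RefSeq's promoter table were used for 8 of the 10 genes, and exon bases were removed. The sequences read 5′ to 3′ on the gene's strand, all 4 on the plus strand. Capitals mark matches, on either strand, to the TATA box TATAAA, the GC box GGGCGG, the Smad-binding letters CAGACA and GTCTAGAC, the cAMP response element TGACGTCA or the AP-1 site TGANTCA.
Ltbp3, chr19:5740650-5740899: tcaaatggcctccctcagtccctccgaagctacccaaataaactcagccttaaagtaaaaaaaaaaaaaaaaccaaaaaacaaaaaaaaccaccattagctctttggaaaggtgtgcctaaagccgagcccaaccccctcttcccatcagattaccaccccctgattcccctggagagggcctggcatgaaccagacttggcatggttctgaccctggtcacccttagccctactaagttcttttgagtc
Tgfbi, chr13:56609336-56609522: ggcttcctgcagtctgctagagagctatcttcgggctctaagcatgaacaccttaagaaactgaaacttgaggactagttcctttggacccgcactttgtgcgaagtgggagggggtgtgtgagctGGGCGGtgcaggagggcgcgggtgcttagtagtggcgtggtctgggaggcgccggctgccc
Tgfb1, chr7:25686752-25687001: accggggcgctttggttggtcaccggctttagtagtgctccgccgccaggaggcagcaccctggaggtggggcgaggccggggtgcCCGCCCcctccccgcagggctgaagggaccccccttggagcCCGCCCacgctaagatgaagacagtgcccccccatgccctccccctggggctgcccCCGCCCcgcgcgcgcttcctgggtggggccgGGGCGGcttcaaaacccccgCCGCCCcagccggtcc
Ltbp1, chr17:75005279-75005528: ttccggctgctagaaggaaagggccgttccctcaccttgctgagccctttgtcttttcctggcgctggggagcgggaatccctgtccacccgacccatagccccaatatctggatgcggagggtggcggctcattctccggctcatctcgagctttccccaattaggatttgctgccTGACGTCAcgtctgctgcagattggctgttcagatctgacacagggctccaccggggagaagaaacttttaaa

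The stretch before *Ltbp3* held none of these motifs, and its GC content was 47.2%. That of *Tgfb1* held 5 GC boxes in 250 bases with a GC content of 75.2%, while 32.7% of the 32851 windows of 250 bases in the table held at least 1. *Tgfbi* had 1 GC box in the 187 bases outside exons, against 22.2% of the windows cut to the same length. *Ltbp1* had 1 cAMP response element, ending 65 bases before the start, and 1.55% of the 250-base windows held one. The Smad-binding letters CAGACA, found in 17.1% of the 250-base windows and 13.5% of the shorter ones, were in none of the 4 stretches. *Ltbp1* has a second RefSeq start, not printed here, and the 250 bases before that one (chr17:75178531-75178780) held CAGACA 2 times, ending 143 and 92 bases before the start. GTCTAGAC (0.167% and 0.143%), TATAAA (12.4% and 8.62%) and TGANTCA (6.75% and 5.14%) were absent from the 4 as well. These matches are a description of letters in the windows named.

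Among the ligands, *Tgfb3* rose at 50 µM IPA. *Tgfb3* (ENSMUSG00000021253, chromosome 12, 86056745 to 86079041) is the isoform best known from palate fusion and tissue repair. Its levels were 3.02, 3.08, 2.96 and 3.89 CPM with vehicle, 3.66, 3.87, 2.63 and 3.52 CPM at 10 µM, and 4.98, 8.57, 6.11 and 8.52 CPM at 50 µM. Every library at 50 µM was above every other library, and within that group the libraries at 4.98 and 6.11 CPM lay apart from those at 8.57 and 8.52 CPM. Vehicle libraries averaged 3.24 ± 0.44 CPM and those at 50 µM 7.05 ± 1.79 CPM (SD, n = 4 each), which is 1.13 ± 0.20 (SE) on the log2 scale (adjusted p = 0.00218). The 50 µM group also differed from the 10 µM group, which averaged 3.42 ± 0.545 CPM (SD, n = 4), by 1.06 ± 0.20 (log2, SE; adjusted p = 0.00192). At 10 µM the log2 difference from vehicle was 0.08 ± 0.18 (SE; adjusted p = 0.956). The 2 short non-coding genes annotated on the opposite strand of its exons had at most 2 counts per library.

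*Tgfb1*, the main TGF-β isoform of blood cells, was counted 9515 to 14690 times per library and so had the most precise values of the 3 ligands. It stood at 505, 453, 489 and 542 CPM with vehicle, 532, 531, 489.9 and 485 CPM at 10 µM and 517, 520.1, 462 and 509 CPM at 50 µM. The 3 groups overlapped. Its fold over vehicle was 1.02 (95% interval 0.924 to 1.14) at 10 µM and 1.01 (0.907 to 1.14) at 50 µM. *Tgfb2* was close to absent, with 0 to 16 counts per library and a mean of 0.356 CPM with vehicle, and the interval of its fold at 50 µM ran from 0.273 to 2.79. No difference of *Tgfb2* was detectable at this depth. *Tgfb1* made up 99.0% of the summed ligand level per length with vehicle and 97.9% at 50 µM, and *Tgfb3* 0.959% and 2.04%.

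Of the LTBPs, *Ltbp3* (ENSMUSG00000024940, chromosome 19, 5740904 to 5758532) was the 1 called. Its product binds the small latent complex inside the cell and aids its secretion. Libraries stood at 9.56, 8.35, 7.43 and 6.99 CPM with vehicle, 12.4, 12.7, 11.5 and 11.2 CPM at 10 µM and 25.6, 29.9, 28.7 and 25.1 CPM at 50 µM. The 3 groups formed 3 separate ranges in the order of the dose. Means were 8.09 ± 1.14, 11.9 ± 0.705 and 27.3 ± 2.35 CPM for vehicle, 10 µM and 50 µM (SD, n = 4 each). On the log2 scale 50 µM exceeded vehicle by 1.76 ± 0.12 (SE; adjusted p = 1.69e-06) and 10 µM by 1.2 ± 0.1 (SE; adjusted p = 8.85e-07). The step from vehicle to 10 µM, 0.56 ± 0.12 (log2, SE), had an adjusted p of 0.0819 from edgeR and passed with DESeq2 (adjusted p = 0.00435).

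*Ltbp1*, which like *Ltbp3* binds the small latent complexes, did not change in that way. Its levels were 10.2, 8.76, 6.49 and 6.83 CPM with vehicle, 5.58, 7.6, 7.33 and 5.86 CPM at 10 µM and 8.11, 6.08, 3.15 and 6.67 CPM at 50 µM. The groups overlapped, and the library with 3.15 CPM lay apart at the low end. The log2 fold change at 50 µM was -0.42 (95% interval -0.93 to 0.09, adjusted p = 0.27), so that a fall by up to 0.93 on the log2 scale is within the interval while a rise like that of *Ltbp3* is not. *Ltbp2*, a matrix protein of the family that does not bind latent TGF-β, had 9 to 34 counts per library and a fold of 1.14 at 50 µM (0.583 to 2.21). *Ltbp4* had summed counts of 6, 3 and 3 in the 3 groups. A library with 0 counts still allows 3 counts, or 0.113 to 0.146 CPM, and no fold is given for it.

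**Figure D3:**
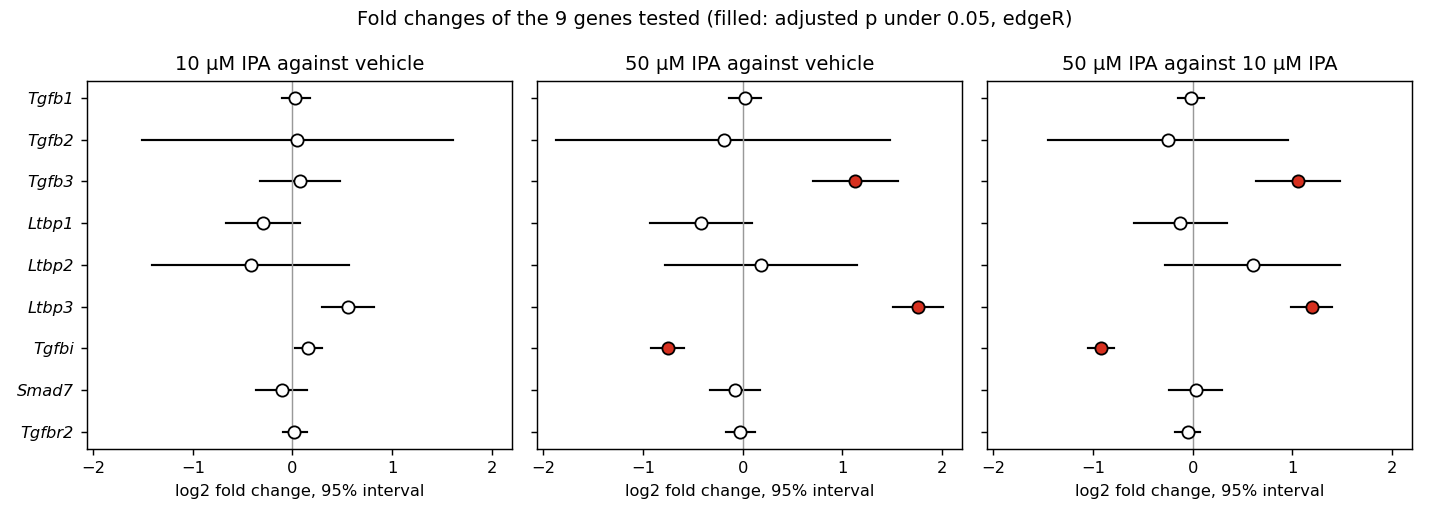
Log2 fold changes of the 9 genes tested, with 95% intervals, in the 3 comparisons (edgeR, 4 libraries per group; filled points have an adjusted p under 0.05). *Ltbp3* and *Tgfb3* lie to the right and *Tgfbi* to the left of 0 in both comparisons with 50 µM IPA, and the intervals of *Tgfb2* and *Ltbp2* are the widest.

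The balance of binding proteins and ligands was taken within each library, as the summed level per length of *Ltbp1* to *Ltbp4* over that of *Tgfb1* to *Tgfb3*. LTBP transcripts amounted to 2.15, 2.05, 1.54 and 1.34% of the ligand transcripts with vehicle, 1.88, 2.04, 2.05 and 1.89% at 10 µM and 3.5, 3.77, 3.8 and 3.43% at 50 µM. All 4 libraries at 50 µM were above the other 8. The mean log2 ratio was 1.06 higher at 50 µM than with vehicle, or 2.09-fold (exact two-sided permutation test, p = 0.0286, adjusted over the 3 comparisons 0.0429), and 0.88 higher than at 10 µM, or 1.84-fold (p = 0.0286, adjusted 0.0429, by the same exact test). With 4 against 4 libraries 0.0286 is the smallest p this test can give. Between 10 µM and vehicle the log2 ratio differed by 0.18 (exact permutation test, p = 0.4). One gene carried the difference: without *Ltbp3* the log2 ratio at 50 µM differed from that of vehicle by -0.41 (exact permutation test, adjusted p = 0.386).

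The make-up of the LTBP pool moved with it. *Ltbp3* made up 51.3 ± 2.77% (SD, n = 4) of the summed LTBP level with vehicle, 65.7 ± 2.23% (SD, n = 4) at 10 µM and 81.8 ± 5.49% (SD, n = 4) at 50 µM. The ratio of *Ltbp3* to *Ltbp1*, chosen after their values were seen and given without a test, was 1.1 to 1.35 with vehicle, 1.86 to 2.62 at 10 µM and 3.72 to 10.7 at 50 µM. The highest of these ratios belongs to the 50 µM library with the lowest *Ltbp1* level.

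**Figure D4:**
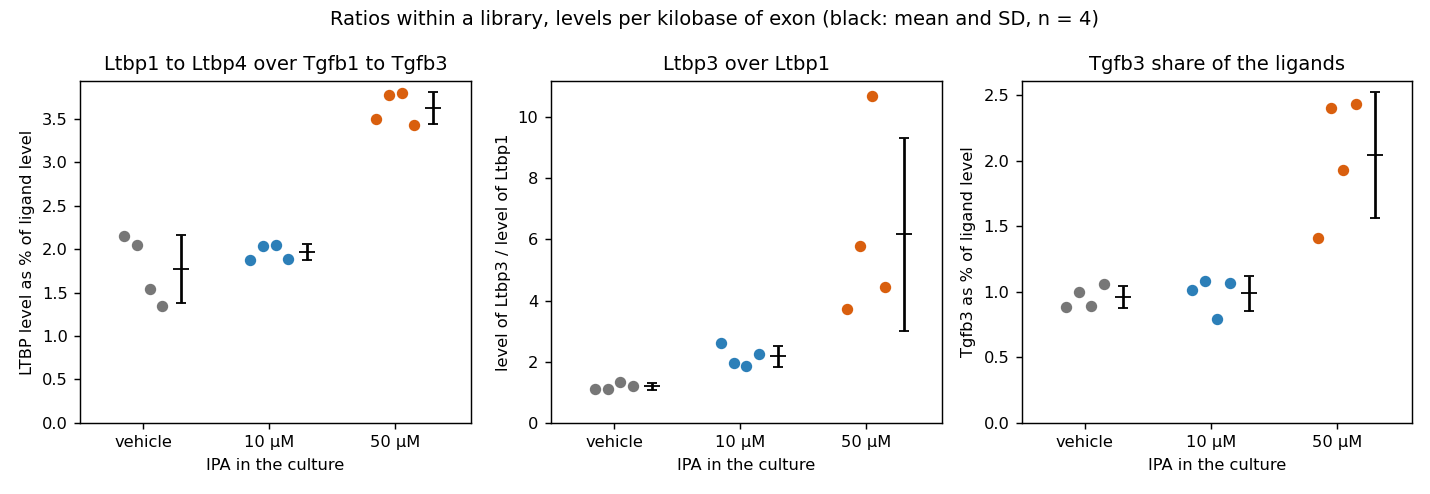
Ratios of levels per kilobase of exon within each library (points: libraries; black: mean and SD, n = 4), with all axes from 0. Left, LTBP level as a percentage of ligand level, from 1.34% in the lowest vehicle library to 3.8% in the highest at 50 µM IPA. Middle, *Ltbp3* over *Ltbp1*. Right, *Tgfb3* as a percentage of the 3 ligands.

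The receptor and the feedback inhibitor showed no detectable difference. *Tgfbr2*, the type II receptor that binds the ligand first, averaged 115 ± 2.85, 116 ± 3.38 and 112 ± 4.57 CPM in the vehicle, 10 µM and 50 µM groups (SD, n = 4 each), and its fold at 50 µM was 0.982 (95% interval 0.89 to 1.08). *Smad7* stood at 11.8, 12.4, 14.3 and 13.6 CPM with vehicle, 11.5, 10.8, 14.7 and 11.0 CPM at 10 µM and 12.9, 11.1, 11.0 and 13.8 CPM at 50 µM, and its fold at 50 µM was 0.945 (0.795 to 1.12). *Smad7* is itself switched on by TGF-β signalling in many cell types, and its libraries overlapped between all 3 groups.

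*Tgfbi* (ENSMUSG00000035493, chromosome 13, 56609523 to 56639562), named for its induction by TGF-β, encodes a secreted matrix protein and is strongly expressed in monocytes and macrophages. It stood at 1006, 899, 986 and 1058 CPM with vehicle, 1131, 1099, 1106 and 1091 CPM at 10 µM and 619.5, 535, 571 and 606 CPM at 50 µM. The libraries at 10 µM were all above vehicle and those at 50 µM all below it. Vehicle, 10 µM and 50 µM averaged 987 ± 66.1, 1107 ± 17.4 and 583 ± 37.8 CPM (SD, n = 4 each). The log2 difference of 50 µM was -0.75 ± 0.08 (SE) from vehicle (adjusted p = 3.94e-05) and -0.92 ± 0.06 (SE) from 10 µM (adjusted p = 9.45e-08). Between 10 µM and vehicle it was 0.16 ± 0.06 (SE) and did not pass (adjusted p = 0.414). The summed level of 5 Ly6C-high monocyte markers was 1395 to 1921 CPM with vehicle, 1789 to 1984 CPM at 10 µM and 970.4 to 1224 CPM at 50 µM. Of these markers 3 were called lower at 50 µM than with vehicle, where 6.50% of all genes were. Against 10 µM, 4 of them were called lower at 50 µM, next to 7.85% of all genes. At 10 µM against vehicle 0 of the markers were called, next to 0.410% of all genes. Their part in the fall of *Tgfbi* was not tested.

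Counted over the 9 genes tested, 3 (33.3%) were called at 50 µM against vehicle, where 13.5% of all 14894 genes were. The genes were chosen with earlier results of these data known, so these shares are a description and estimate no excess. The same 3 genes were called against 10 µM, where 15.4% of all genes were, and the 2 comparisons share the libraries at 50 µM. Of the 3, 2 rose, against a background of 7.00% of all genes called higher than with vehicle and 7.52% higher than at 10 µM, and 1 fell, against 6.50% and 7.85% called lower. In the comparison of 10 µM with vehicle 0 of 9 were called by edgeR, with a background of 0.410%, while 2 of 9 (*Ltbp3* and *Tgfbi*) had an unadjusted p under 0.05, as did 8.78% of all genes. DESeq2 called 1 of the 9 (*Ltbp3*) and 1.68% of all genes, and limma-voom 0 of the 9 and 0.423%. Libraries of the groups did not overlap for these 2 genes at 10 µM, against 6.12% of all genes, and for 3 genes in each comparison with 50 µM, against 20.0% (vehicle) and 20.3% (10 µM). The median log2 fold change of the 9 genes was 0.03 for 10 µM against vehicle, -0.03 for 50 µM against vehicle and -0.02 for 50 µM against 10 µM, next to -0.006, 0.012 and 0.008 over all genes.

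Calls are those of edgeR where no other tool is named. Of 80 other genes of the pathway, sorted into 7 lists with earlier results of these data known, 66 were tested. At 50 µM against vehicle 19 of them (28.8%) were called, next to 13.5% of all genes, 11 higher and 8 lower, around a median of -0.07 (log2). DESeq2 called 25 of the 66, 12 higher and 13 lower, next to 17.1% of all genes, and limma-voom 20, next to 13.5%. The edgeR count was 11 without vehicle replicate 3 and 12 without 50 µM replicate 2. Over all genes those 2 fits called 1248 and 1313, against 2010 with all libraries of the comparison. Against 10 µM, 19 of 66 were called too, next to 15.4% of all genes, 7 higher and 12 lower. At 10 µM against vehicle edgeR called 0 of 66, with 11 at an unadjusted p under 0.05 next to 8.78% of all genes, and limma-voom called 0. DESeq2 called 3, next to 1.68% of all genes, namely the receptor *Acvrl1*, the surface anchor of latent TGF-β *Lrrc32* and *Fcrls*, the first 2 of which are named after their values were seen.

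Genes for release and activation of the latent complex moved in both directions. *Mmp2*, a gelatinase that can free matrix-bound TGF-β, stood at 21.8, 15.1, 19.1 and 14.2 CPM with vehicle, 18.4, 21.0, 16.6 and 15.4 CPM at 10 µM and 41.3, 39.1, 36.1 and 45.1 CPM at 50 µM. The 50 µM libraries were all above the others, with a log2 fold change over vehicle of 1.21 (standard error 0.13). *Mmp9*, the other gelatinase, rose less, from 575 ± 50.3 to 719 ± 18.8 CPM (SD, n = 4). *Mmp14*, the membrane-bound activator of Mmp2, fell from 305 ± 26.9 to 249 ± 18.9 CPM (SD, n = 4) with overlapping libraries, and *Emilin1*, whose product hinders the processing of the TGF-β precursor, fell to 0.798 of its vehicle level (0.696 to 0.915). These 4 were the ones edgeR called among 13 tested anchors and activators (30.8%), next to 13.5% of all genes at 50 µM against vehicle. DESeq2 also called *Nrros*, a surface anchor of latent TGF-β in myeloid cells, lower (log2 fold change -0.19), which is named after its value was seen.

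Receptor and Smad transcripts also split. EdgeR called 10.0% of the receptor genes at 50 µM against vehicle, next to 13.5% of all genes. Against 10 µM, 15.4% of all genes were called. The type I receptor *Tgfbr1*, the partner of *Tgfbr2*, stood at 92.2, 85.2, 96.3 and 89.8 CPM with vehicle, 93.6, 96.7, 96.4 and 92.1 CPM at 10 µM and 75.4, 69.5, 62.9 and 57.4 CPM at 50 µM, and was the 1 of 10 receptor genes that edgeR called against vehicle (log2 fold change -0.45, standard error 0.09). DESeq2 also called *Acvr1b* (log2 fold change -0.23) and *Bmpr1a* (-0.39) lower and *Acvrl1* (0.49) higher. Against 10 µM, the activin receptor *Acvr1b* (log2 fold change -0.28) and the BMP receptor *Bmpr1a* (-0.44) were called lower with it. *Smad3*, which carries the signal of the receptors to the nucleus, rose from 8.22 ± 1.12 to 13.3 ± 0.77 CPM (SD, n = 4) and *Smad6*, an inhibitory Smad of the BMP branch, from 2.3 ± 0.684 to 4.11 ± 0.722 CPM (SD, n = 4). The remaining 4 tested Smad genes were not called by edgeR or DESeq2. Among 11 negative regulators *Pmepa1*, which traps receptor Smads, rose (log2 fold change 0.65) and the co-repressor *Skil* fell (-0.27) against vehicle, while the co-repressor *Ski* (-0.29) and the co-receptor *Cd109* (-1.51) were called lower against 10 µM.

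Genes known to respond to TGF-β did not move one way. In a list of 12 tested genes taken as TGF-β-induced, edgeR called 5 at 50 µM against vehicle, next to 13.5% of all genes. The cell cycle inhibitors *Cdkn1a* (log2 fold change 0.44) and *Cdkn2b* (1.05) and the transcription factor *Bhlhe40* (0.54) rose. *Id1* (-0.48) and *Ldlrad4* (-0.70) fell, the last named after its value was seen. DESeq2 also called *Tgfb1i1* lower (log2 fold change -1.0), named after its value was seen as well. The median of the list was -0.09. Of 7 tested genes that macrophages are known to express under TGF-β, 4 were called at 50 µM against vehicle, next to 13.5% of all genes. The chemokine receptor *Cx3cr1* and the nucleotide receptor *P2ry12* fell, while the lysophospholipid receptor *Gpr34* and the Fc receptor-like *Fcrls* rose. *Cx3cr1* went from 9.98, 10.2, 7.61 and 7.63 CPM with vehicle to 4.2, 3.73, 3.93 and 4.28 CPM at 50 µM. Its 50 µM libraries were the lowest of all 12, with a log2 fold change of -1.13 (standard error 0.15).

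Of 14 other ligands of the superfamily 7 were tested. At 50 µM against vehicle edgeR called 1 (14.3%), about the share over all genes (13.5%). *Gdf15*, a stress-induced member, had 1.89, 2.12, 2.19 and 0.636 CPM with vehicle, 2.86, 3.05, 2.29 and 1.6 CPM at 10 µM and 6.44, 8.35, 11.9 and 12.7 CPM at 50 µM, a 5.8-fold rise over vehicle (95% interval 3.66 to 9.18, adjusted p = 0.000165). *Inhba*, the activin A subunit, was lower at 50 µM than at 10 µM (log2 fold change -0.35) and against vehicle passed with DESeq2 (adjusted p = 0.0452) but not with edgeR (adjusted p = 0.0763).

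**Figure D5:**
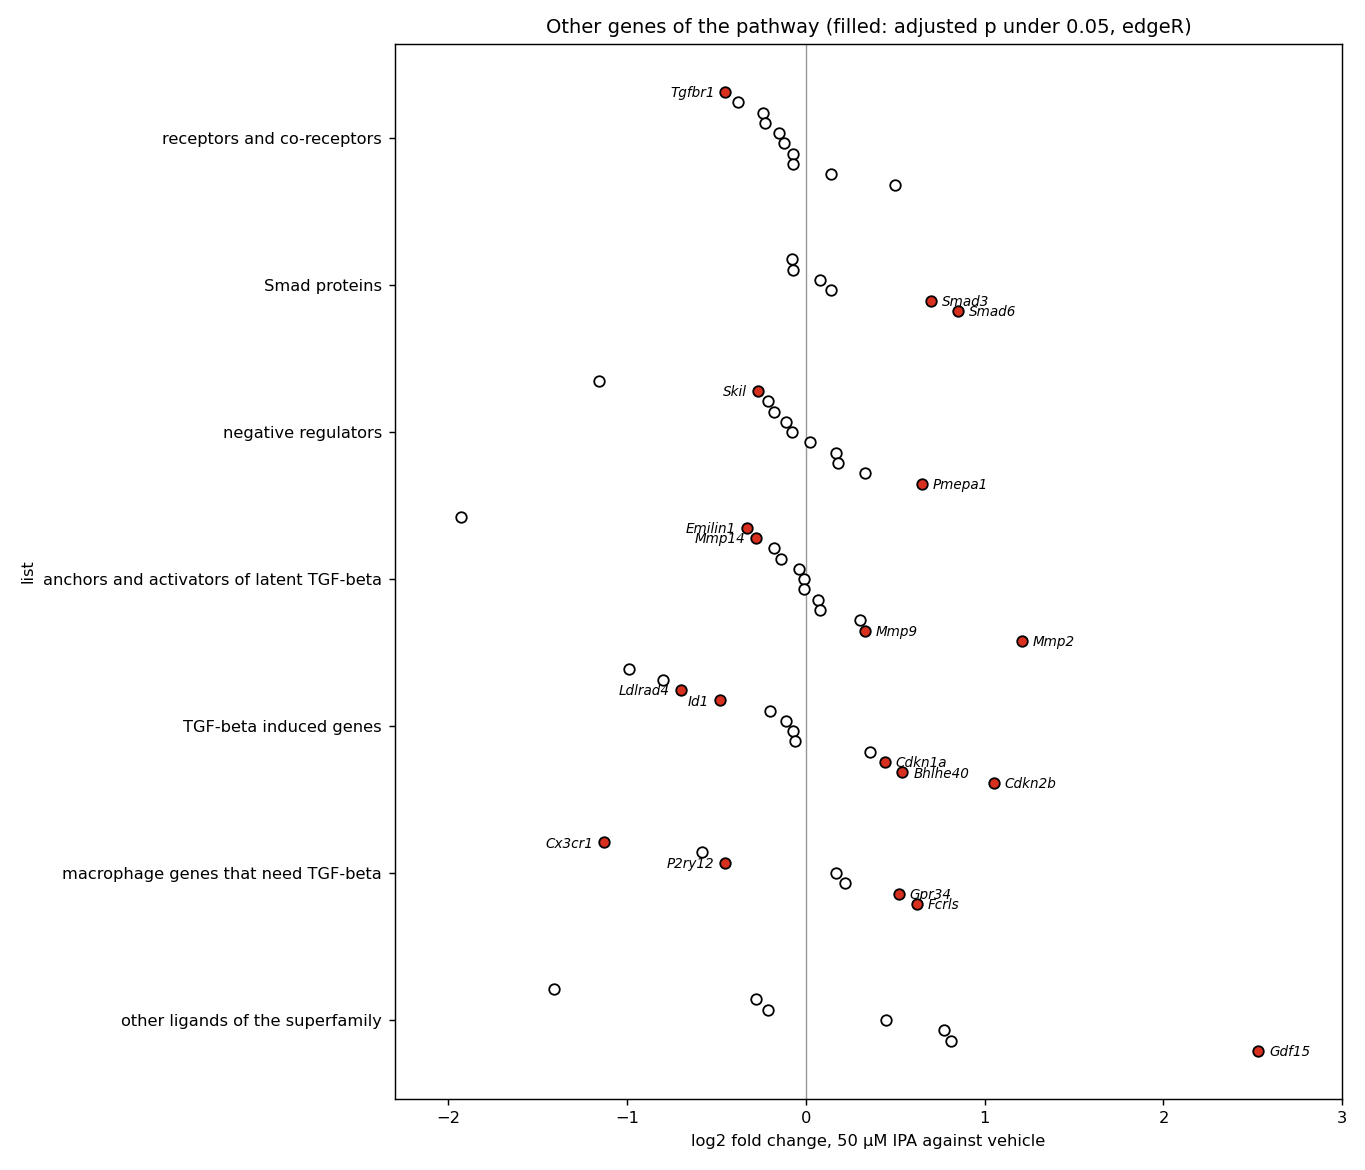
Log2 fold changes, 50 µM IPA against vehicle, of the 66 other pathway genes tested, in 7 lists (filled and named: adjusted p under 0.05, edgeR, 4 libraries per group). Filled points lie on both sides of 0, with 11 higher and 8 lower, and *Gdf15* is farthest to the right at 2.53.

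Cell type markers were read beside these results, since several blood and stromal cells express TGF-β genes, and over all genes 7.00% were called higher and 6.50% lower at 50 µM than with vehicle. At 50 µM against vehicle 6 of 10 neutrophil markers were called lower, with a summed level of 20111 to 28428 CPM with vehicle and 14116 to 19694 CPM at 50 µM, and 2 of 8 macrophage markers were called higher and 1 lower. At 10 µM against vehicle 2 of the 8 macrophage markers were called higher, next to 0.329% of all genes, and the list summed to 1592 to 1760 CPM with vehicle, 1805 to 2051 CPM at 10 µM and 1657 to 1762 CPM at 50 µM. At 50 µM 5 of the 8 were called lower than at 10 µM and 1 higher, next to 7.85% and 7.52% of all genes. The endothelial list also summed higher at 10 µM, to 63.4 to 75.5 CPM against 45.4 to 60.8 CPM with vehicle, with 0 of 3 tested markers called. The megakaryocyte and platelet list summed to 275 to 315 CPM with vehicle and 344 to 396 CPM at 50 µM, with 2 of 6 tested markers called higher and *Gp1bb* at 0 counts in every library. At 50 µM against vehicle all 5 B cell markers were called higher, at a summed level of 18.3 to 25.3 and 36.5 to 56.6 CPM, and 3 of 7 dendritic cell markers. The part of these lists in the levels of *Ltbp3* and *Tgfb3* at either dose was not tested. The fibroblast and stromal list summed to 180.2 to 207 CPM with vehicle and 280.4 to 364 CPM at 50 µM, of which *Thy1* alone gave 170.3 to 198 and 275 to 358 CPM. Without *Thy1* its sum was 8.38 to 14.2 CPM with vehicle and 5.13 to 6.42 CPM at 50 µM, and *Dcn*, *Lum*, *Cxcl12*, *Col3a1* and *Pdgfra* had at most 15 counts in a vehicle library and 5 at 50 µM. Of the mast cell and eosinophil lists 1 gene each was called at 50 µM against vehicle, lower and higher respectively, and none of the erythroid, T and NK or endothelial lists.

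Across the 12 libraries *Ltbp3* and *Tgfb3* varied together (Pearson r = 0.85) and each went against *Tgfbi* (r = -0.87 for both). These values describe 12 libraries that share 3 treatment groups, and no test was made. The genes most like *Ltbp3* in log2 CPM were the Toll-like receptor chaperone *Unc93b1* (r = 0.986), the protease inhibitor *Serpinb2* (0.984) and *Retnla* (0.981), a marker of alternatively activated macrophages. For *Tgfb3* they were the sodium channel subunit *Scn4b* (r = 0.957), the tyrosyl-tRNA synthetase *Yars* (0.956) and *Ccdc102a* (0.945), and for *Tgfbi* the galactosyltransferase *B3galt2* (0.989), the lipid amidase *Naaa* (0.987) and the cytokine signalling inhibitor *Socs3* (0.983). *Retnla* went from 0.567 ± 0.201 CPM with vehicle over 4.7 ± 1.44 at 10 µM to 65.2 ± 8.87 at 50 µM (SD, n = 4 each), a wider range than that of *Ltbp3*.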

How the data were processed

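RNA of cultured mouse bone marrow cells was sequenced as 12 stranded mRNA libraries. The authors trimmed reads with Atropos, aligned them to mm10 (GRCm38) with HISAT2 2.2.1 and deposited raw counts per Ensembl gene from featureCounts 2.0.1, and per the labels DESeq2 1.40.2 and R 4.3.0 were used. The strand setting of the counting is not given in the sources used here, so reads of a gene and of one on its opposite strand may not be told apart, and 1 such check is not reported here. A counted library was assigned to its group and replicate number by its labels, and the title of 10 µM replicate 3 repeats that of replicate 2, so that its library name was used. Within groups, no library was a copy of another (chi-square per degree of freedom of 5.02 or more).

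The counts were tested with edgeR 4.0.16 in R 4.3.3 (TMM, glmQLFit, glmQLFTest) on the 8 libraries of each of 3 comparisons, with genes above 0.5 CPM in at least 2 of 12 libraries (14894 of 54532) and Benjamini-Hochberg adjustment over all of them at 0.05. Exon lengths and positions came from GENCODE M21 (GRCm38) and promoters from RefSeq (GRCm38.p6). The LTBP to ligand ratio was tested by exact permutation. DESeq2 1.42.0, limma-voom (limma 3.58.1), DESeq2's size factors, other filters, a replicate block, a fit of all 12 libraries and leaving out each library were the alternatives. Replicate numbers gave no sign of pairing, and whether the samples were paired is not known. The limit given for a count of 0 (3 counts) covers counting error only. The 10 genes, the 7 pathway lists and the 12 marker lists were chosen with earlier results of these data known. All 10 genes are named, and of each pathway list up to 4 called genes with the smallest p, with exceptions marked. For likeness, the 3 genes with the highest Pearson correlation of log2 CPM (prior count 2) were taken.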

Additional observations from a re-analysis of the deposited data

Results flagged for a closer look

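*Tgfb3* in vehicle replicate 4 stood at 3.89 CPM, apart from the other 3 vehicle libraries at 2.96 to 3.08 CPM by Dixon's criterion for 4 samples. Of 30 groups of libraries examined this was the 1 flagged, and chance flags about 1 in 20 groups. The library remained below all 4 libraries at 50 µM IPA, of which the lowest had 4.98 CPM, and leaving out each library in turn kept the log2 fold change of *Tgfb3* at 50 µM between 1.02 and 1.26.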

How the results depend on the processing

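At 50 µM IPA the calls of *Ltbp3*, *Tgfb3* and *Tgfbi* held against vehicle and against 10 µM under all 7 other settings and all 8 fits that left out 1 library, with log2 fold changes over vehicle of 1.70 to 1.85, 1.02 to 1.26 and -0.80 to -0.72. At 10 µM against vehicle the count of called genes among the 9 was 1 with DESeq2, without a filter and with all 12 libraries in the fit, each time *Ltbp3*, whose adjusted p ranged from 0.00435 to 0.233 over the alternatives and from 0.0854 to 0.303 with 1 library left out. The cause was not tested. Called pathway genes at 10 µM numbered 3 with DESeq2, 3 without a filter, 2 with all 12 libraries and 0 to 3 with 1 library left out (3 without vehicle replicate 4), and those at 50 µM against vehicle 11 to 26, with 11 without vehicle replicate 3 and 12 without 50 µM replicate 2. Over all genes the called count at 10 µM against vehicle was 61, with 3 to 250 over the alternatives and 4 to 122 with 1 library left out. It was 1248 to 2689 with 1 library left out at 50 µM against vehicle. Without *Ltbp3* the log2 LTBP to ligand ratio turned to -0.33 and -0.41 for 10 µM and 50 µM over vehicle, and to -0.09 for 50 µM over 10 µM.

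The replicate numbers gave no sign of pairing, with correlations of same-numbered libraries from -0.24 to 0.14. Such values cannot show that the samples were unpaired. With the replicate block the members called were 0, 3 and 3, all genes called at 10 µM numbered 3, and the ratio differences of 1.06 and 0.88 had p = 0.125, the smallest the exact sign-flip test of 4 pairs can give. For some results that were not called the direction changed: *Tgfb2* at 50 µM against vehicle was 0.32 with limma-voom, and with 1 library left out log2 fold changes ran from -0.34 to 0.46 (10 µM) and -0.75 to 0.21 (50 µM) for *Tgfb2*, from -0.01 to 0.08 and -0.03 to 0.07 for *Tgfb1*, and from -0.05 to 0.56 for *Ltbp2* at 50 µM. For 50 µM against 10 µM they ran from -0.04 to 0.02 (*Tgfb1*), -0.79 to 0.02 (*Tgfb2*), -0.30 to 0.08 (*Ltbp1*) and -0.04 to 0.14 (*Smad7*). Depth limits *Tgfb2*, *Ltbp2* and *Ltbp4*, which had at most 34 counts in a library.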
